A study of Mus musculus with 18 samples.

Results

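A set of 6 genes that separated the basal cells of pubertal ducts from those of terminal end buds (TEBs) in the mouse mammary gland were followed through the whole of postnatal development: *Postn*, *Sparc*, *Ltbp2*, *Clca3a2*, *Fhod3* and *Fbxl22*. These 6 of 31053 features were chosen for their duct over TEB ratios in basal cells. The values of the pubertal libraries are therefore given as a description, without a test. The question addressed was whether genes that mark the basal layer of the pubertal duct also mark basal cells at later ages, and whether they are particular to basal cells. In the basal cells of all 12 libraries from adults, pregnancy, lactation and the gland after involution, 5 of the 6 genes lay above their TEB level, and *Sparc* did so in 10 of the 12. This count is a description, since a low TEB level helped to choose the genes, and 30.5% of all genes 2-fold or more higher in duct did the same. That set was not matched to the 5 genes for their TEB level. *Ltbp2* was lower in pregnancy and lactation than in the adult gland of the same strain, while *Fbxl22* was highest in late pregnancy.

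Single-cell RNA-seq libraries of mouse mammary glands (droplet 3' libraries, with 1 unique molecular identifier, UMI, counted per captured transcript) covered 13 groups in 18 libraries. The C57BL/6 libraries were E18.5 mammary rudiments and adjacent skin, postnatal day 5, pre-puberty at 2.5 weeks, TEBs and ducts dissected at 5 weeks, and 1 adult library at 10 weeks. A single adult SWISS library and 3 adult FVB/NJ libraries (A10, D12 and P7) were also from 10 weeks. Pregnancy day 12.5 (H and G), pregnancy day 18.5 (F4 and B4) and lactation day 10 (F11 and D6) had 2 FVB/NJ libraries each, and 1 FVB/NJ library came from glands after involution, timed in the labels only as 3 weeks post birth. Glands of several mice were pooled for a library, the TEBs and ducts were dissected under guidance of an E-cadherin-GFP reporter, and cells were sorted with Ter119, CD31 and CD45 as the lineage markers of blood and endothelial cells. The study also gated on the surface markers CD24 and CD29 to sort epithelial cells, and describes stromal clusters as contaminating. Fibroblasts of the mammary libraries are thus cells left after an epithelial sort. The study names no adult library as processed together with the pregnancy and lactation ones, so stage and processing date cannot be told apart. It does name an adult FVB/N sample as processed together with the post-involution one, without saying which replicate. Single libraries of a group carry no replicate error, and p-values below measure only the spread between libraries.

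The mammary ductal tree has an inner luminal layer and an outer basal layer, in which contractile myoepithelial cells touch the basement membrane. In puberty the tree grows from TEBs, whose outer cap cells give rise to the basal layer of the ducts that trail behind them. Myoepithelial cells secrete basement membrane and other matrix proteins, hold a smooth muscle-like actin and myosin apparatus, and contract in response to oxytocin to eject milk.

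Library totals ranged from 9920346 UMIs (adult FVB/NJ P7) to 93234616 UMIs (lactation D6), and 132599 of 149371 cells were kept. A cell was called basal where *Krt5* and *Krt14* UMIs together exceeded those of *Krt8* and *Krt18*, luminal where the reverse held, and a fibroblast or other stromal cell where the markers of those cells exceeded the keratins. None of the 6 genes entered these rules. Basal cells numbered 183 in the TEB library, 709 in the duct library and 484 to 7198 in the 12 later libraries. The basal markers *Trp63*, *Krt17*, *Acta2*, *Myh11*, *Oxtr* and *Cnn1* summed to 6559 to 32398 CPM (counts per 1000000 UMIs of the class, milk genes included in these marker sums) in the basal cells of the later libraries, against 145 to 918 CPM for 6 luminal markers. Basal cells at postnatal day 5 and E18.5 also held epidermal transcripts, with 6108 and 2138 CPM for 6 epidermal genes, against 17.6 to 489 CPM in the later libraries. Of the 153 pairs of libraries, 115 shared cell barcodes, 6117 in all and at most 2.41% of the smaller library. The sharing was uneven. E18.5 mammary shared 102 with post-involution and 92 with adult FVB/NJ A10. It shared 0 with postnatal day 5, 0 with pre-puberty, 1 with adult C57BL/6 and 2 with adult SWISS. Whether those last libraries were prepared differently was not examined, and comparisons of them with duct or FVB/NJ cross this split. TEB and duct shared 5. Barcodes of P7 were 14 bases long and those of the other libraries 16. The lactation library F11 kept 48.6% of its cells.

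*Postn*, *Sparc* and *Ltbp2* encode extracellular matrix proteins. Periostin (*Postn*) is a matricellular ligand of integrins, SPARC (osteonectin, *Sparc*) is a collagen-binding matricellular glycoprotein, and *Ltbp2* encodes a latent TGF-beta binding protein found on microfibrils. *Clca3a2* belongs to the family of secreted calcium-activated chloride channel regulators. *Fhod3* and *Fbxl22* encode intracellular proteins, a formin that assembles actin filaments in muscle and an F-box protein of the muscle sarcomere, so that only 4 of the 6 genes encode matrix or secreted products. In GRCm38 (GENCODE M21 genes), *Postn* lies at chr3:54361109-54391037 on the plus strand and *Clca3a2* at chr3:144796559-144819494 on the minus strand. *Fbxl22* lies at chr9:66508459-66514593, *Sparc* at chr11:55394500-55423183 and *Ltbp2* at chr12:84783212-84876532, all on the minus strand.

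Promoter sequence is shown for 3 of the genes, chosen after their values were seen because their stage patterns differed: among the 12 later libraries, *Postn* lay within its adult range in pregnancy, *Fbxl22* was highest in pregnancy and *Ltbp2* lowest in pregnancy and lactation. Each sequence is the 200 bases upstream of the annotated gene (RefSeq, GRCm38.p6), 5′ to 3′ on the gene's strand, from a promoter table that held 5 of the 6 genes. The windows were searched for TATAAA (the TATA box, gene strand only), GGAATG (the core of TEAD sites, both strands) and TGANTCA (the AP-1 site, both strands), and capitals mark matches.
Postn, chr3:54360907-54361106, plus strand: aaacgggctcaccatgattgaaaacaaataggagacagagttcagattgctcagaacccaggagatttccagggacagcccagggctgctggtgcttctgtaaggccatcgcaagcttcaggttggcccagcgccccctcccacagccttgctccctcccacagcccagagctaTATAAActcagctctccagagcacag
Fbxl22, chr9:66514594-66514793, minus strand: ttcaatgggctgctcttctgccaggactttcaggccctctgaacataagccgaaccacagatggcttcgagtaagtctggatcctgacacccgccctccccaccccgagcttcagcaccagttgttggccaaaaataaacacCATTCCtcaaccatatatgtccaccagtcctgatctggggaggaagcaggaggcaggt
Ltbp2, chr12:84876533-84876732, minus strand: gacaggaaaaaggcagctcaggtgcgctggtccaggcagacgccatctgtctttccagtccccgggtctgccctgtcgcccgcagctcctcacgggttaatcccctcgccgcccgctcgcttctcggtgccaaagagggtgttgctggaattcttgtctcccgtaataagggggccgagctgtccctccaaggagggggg
The *Postn* window held TATAAA once, the *Fbxl22* window held GGAATG once on the opposite strand (read here as CATTCC), and the *Ltbp2* window held none of these letters. A second *Postn* window of the table, at chr3:54359067-54359266 and not shown, held none of them either. The *Clca3a2* window at chr3:144819495-144819694 on the minus strand held 1 TGANTCA match. In the 250 bases upstream of 32851 RefSeq promoters, TATAAA occurred in 7.59%, GGAATG in 12.6% and TGANTCA in 6.75%. The matches are descriptions of the letters only.

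In basal cells of the TEB library, 5 of the 6 genes were close to absent. Levels are CPM of the UMIs outside 8 milk protein genes, which took up to 60.2% of the UMIs of basal cells in lactation. *Postn* was at 1.81 CPM in TEB (8 UMIs) and at 295 CPM in duct (2983 UMIs), a ratio of 163 with a 95% interval of 82.5 to 377. *Ltbp2* rested on 1 UMI in TEB and 612 UMIs in duct, 0.227 and 60.6 CPM, and its ratio of 267 had an interval of 47.8 to 10572. *Sparc* stood apart, since its TEB level was already high, at 1252 CPM in TEB and 2005 CPM in duct, a ratio of 1.60 (1.56 to 1.65). *Clca3a2* was at 1.13 and 116 CPM, a ratio of 102 (43.7 to 315). The intracellular pair had the smaller ratios of the remaining genes. *Fhod3* was at 2.27 and 59.3 CPM, a ratio of 26.2 (14.1 to 54.8), and *Fbxl22* was at 3.40 and 87.0 CPM, a ratio of 25.6 (15.4 to 45.9). Thus 5 of 6 genes were at least 2-fold higher in duct, which 9.84% of the 12649 genes with 10 or more UMIs over both libraries also were. These intervals (exact conditional binomial) cover counting error only, as each structure was 1 library. TEB basal cells had the higher median depth, 22333 UMIs against 11607 UMIs in duct, and their basal marker sum was 6240 CPM against 12650 CPM. Of the ratios, that of *Fhod3* moved by more than 1.5 times with a stricter call of basal cells, to 12.8 where class keratins had to make up 80% or more. That rule kept 61 of the 183 TEB basal cells and 548 of the 709 duct basal cells.

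Where every cell was thinned to 1500 UMIs, *Postn* was found in 0 of 183 TEB basal cells, which at that depth allows a share with a UMI of up to 1.64%, and in 35.7% of 709 duct basal cells. Without thinning, 7 of the TEB cells (3.83%) and 74.0% of the duct cells held a *Postn* UMI, against 1.35% and 3.30% of luminal cells. The thinned share in luminal cells of the same libraries, given as the background, was 0.06% in TEB and 0.52% in duct. *Sparc* was found in 82.5% of TEB and 93.5% of duct basal cells, against 12.8% and 3.52% of luminal cells. No TEB basal cell held 3 or more of the 6 transcripts, whereas 24.7% of duct basal cells did. In duct, 4.09% of basal cells held none of them, against 17.5% in TEB. Luminal cells of TEB held more *Clca3a2* (16.9 CPM) and *Ltbp2* (1.35 CPM) than the basal cells beside them, and in duct both genes were higher in basal than in luminal cells (79.4 and 4.45 CPM).

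**Figure D1:**
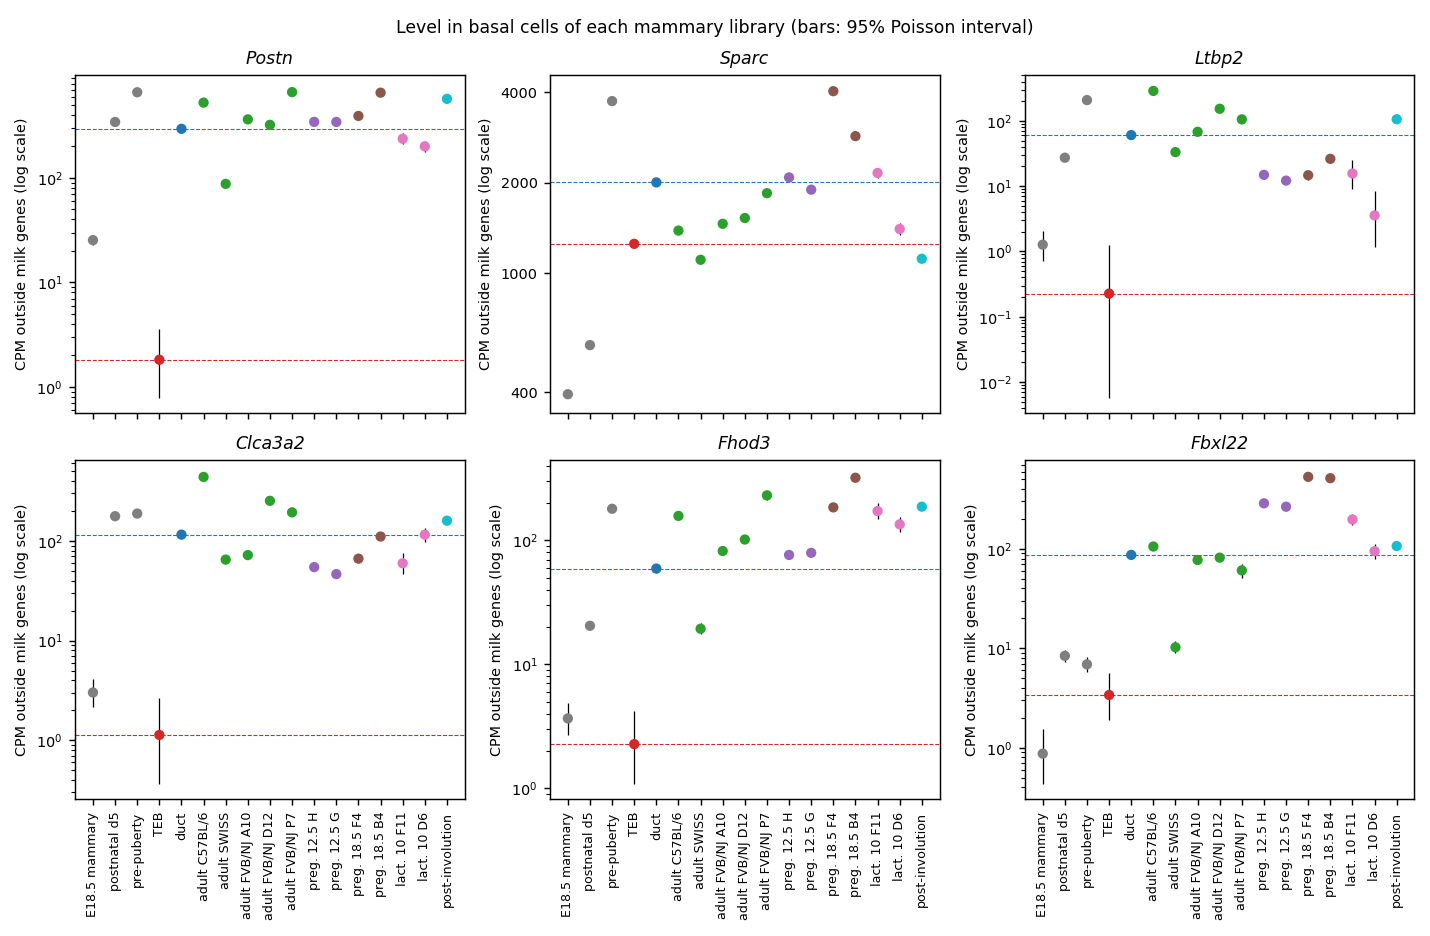
Level of each gene (CPM of UMIs outside milk genes, log axis) in the basal cells of the 17 mammary libraries, with bars for the 95% Poisson interval of counting error and dashed lines at the TEB (red) and duct levels. The other 5 panels place TEB below all 12 later libraries, with the smallest gap for *Fbxl22* in adult SWISS (10.3 against 3.40 CPM), while *Sparc* spans 1107 to 4039 CPM there and has TEB at 1252 CPM.

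After puberty, the genes stayed above their TEB level to different degrees. *Postn*, *Ltbp2*, *Clca3a2*, *Fhod3* and *Fbxl22* each lay above the upper limit of the TEB counting interval in 12 of 12 later libraries, and *Sparc* in 10 of 12. Of the 12649 genes compared, 5.45% were above it in all 12, as were 30.5% of the 1245 genes that were 2-fold or more higher in duct. Neither set was matched to the near-absent TEB level of the 5 genes, so the shares are not read against them. *Postn* and *Ltbp2* and *Clca3a2* exceeded 10 times the TEB level in 12 of 12 libraries, *Fhod3* and *Fbxl22* in 11 of 12, and *Sparc* in none. These counts are descriptions, since a low TEB level helped to choose the genes. For *Ltbp2* the TEB level rested on 1 UMI (0.227 CPM), and its lowest later library was at 3.57 CPM. The share of all genes above 10 times their TEB level was not counted. The duct level itself was reached less evenly: *Fhod3* was at or above it in 11 of 12 libraries, *Postn* in 9, *Fbxl22* in 8, *Ltbp2* in 5, and *Sparc* and *Clca3a2* in 4 each. How often all genes reached their duct level was not counted either, so these counts are not read as particular to the genes.

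*Postn* varied least of the 5 genes that were near absent in TEB, by 7.56-fold between its highest and lowest later libraries. Its basal level was 363 CPM in adult FVB/NJ A10, 322 CPM in D12 and 663 CPM in P7, and 526 CPM in C57BL/6 and 87.7 CPM in SWISS. In pregnancy it was 344 CPM in H, 343 CPM in G, 392 CPM in F4 and 655 CPM in B4, and the gland after involution had 572 CPM. The pregnancy libraries thus lay within the range of the adult ones. Both lactation libraries, with 237 CPM in F11 and 201 CPM in D6, were below duct and below every adult FVB/NJ library. SWISS was the only other later library below duct.

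*Sparc* was abundant everywhere, and its later levels lay above TEB in 10 of 12 libraries but not in all. Adult levels were 1460, 1526 and 1846 CPM in FVB/NJ A10, D12 and P7, 1386 CPM in C57BL/6 and 1107 CPM in SWISS. SWISS and the post-involution gland, with 1116 CPM, were the 2 later libraries that did not exceed TEB. Pregnancy gave 2084 and 1897 CPM at day 12.5 (H, G) and 4039 and 2860 CPM at day 18.5 (F4, B4), and lactation 2156 CPM in F11 and 1403 CPM in D6. All 4 pregnancy libraries lay above all 3 adult FVB/NJ libraries.

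*Ltbp2* had the widest range of the 6 genes, 80.4-fold between adult C57BL/6 and lactation D6. Adult levels were 68.0, 153 and 105 CPM in FVB/NJ A10, D12 and P7, 287 CPM in C57BL/6 and 33.2 CPM in SWISS. All 4 pregnancy libraries were far lower, at 14.9 and 12.2 CPM at day 12.5 (H, G) and 14.7 and 26.2 CPM at day 18.5 (F4, B4). Lactation gave 15.6 CPM in F11 and 3.57 CPM in D6, the latter from 5 UMIs. The gland after involution, processed together with an adult FVB/N sample, lay within the adult range at 106 CPM. Every later library at or above duct for *Ltbp2* was from an adult or post-involution gland.

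*Clca3a2* also reached its highest level in adult C57BL/6, at 439 CPM, followed by FVB/NJ D12 and P7 at 253 and 194 CPM and by the post-involution gland at 160 CPM. FVB/NJ A10 (72.2 CPM) and SWISS (65.0 CPM) lay below duct. So did the pregnancy libraries, at 54.7 and 46.5 CPM at day 12.5 (H, G) and 66.5 and 111 CPM at day 18.5 (F4, B4). Lactation F11 had 59.8 CPM and D6 had 116 CPM, which could not be told apart from the 116 CPM of duct by its counting interval of 98.5 to 135 CPM. *Clca3a1*, its neighbour on chromosome 3, was at 14.0 CPM in duct and 5.84 to 72.7 CPM in the adult libraries. The 2 genes share 820 windows of 50 bases, 22.7% of the *Clca3a2* transcript, but none in its last 500 bases, where 3' libraries read, and 5.76% of the windows in the last 500 bases of *Clca3a1*. How the authors' counting divided such reads was not examined.

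*Fhod3* (chr18:24708623-25133501, plus strand) and *Fbxl22* were lowest in SWISS among the later libraries, at 19.4 and 10.3 CPM. For *Fhod3* the other adults gave 82.2, 102 and 231 CPM in FVB/NJ A10, D12 and P7 and 158 CPM in C57BL/6, so that P7 stood above the other two FVB/NJ libraries. Pregnancy day 12.5 gave 76.4 and 79.4 CPM (H, G), day 18.5 185 and 321 CPM (F4, B4), lactation 173 and 135 CPM (F11, D6), and the gland after involution 188 CPM. For *Fbxl22* the adults were at 77.4, 81.7 and 60.8 CPM in FVB/NJ A10, D12 and P7 and at 106 CPM in C57BL/6. Pregnancy day 12.5 gave 287 and 266 CPM (H, G), day 18.5 530 and 514 CPM (F4, B4), and lactation 198 and 94.9 CPM (F11, D6). The gland after involution had 107 CPM. All pregnancy and lactation libraries lay above all adult FVB/NJ libraries for *Fbxl22*. Of the 15810 genes with 10 or more UMIs over the 9 FVB/NJ libraries of adults, pregnancy and lactation, 16.4% lay in this way above the adult FVB/NJ range at day 12.5, 16.9% at day 18.5 and 15% (2368 genes) in lactation.

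The adult SWISS library was the lowest of the 5 adult libraries for all 6 genes. It had the highest median depth of them in basal cells, 6084 UMIs against 1935 to 4476 UMIs, and it was the only library of its strain. Its basal marker sum was 7859 CPM, against 10726 to 29280 CPM in adult FVB/NJ. SWISS and C57BL/6 adults were processed concurrently, and within that pair SWISS was lower for each of the 6 genes. The part of depth in this difference was not tested, and strain and library cannot be told apart. The share of all genes that were lowest in SWISS was not counted, so the pattern is not read as particular to the 6 genes.

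Before puberty the genes were not all low. At 2.5 weeks, *Postn* (661 CPM), *Sparc* (3744 CPM), *Ltbp2* (208 CPM), *Clca3a2* (188 CPM) and *Fhod3* (180 CPM) were above the duct level. *Fbxl22* was at 6.90 CPM there, below every later library. At E18.5 all 6 genes were below duct, with 25.4 CPM of *Postn*, 395 CPM of *Sparc* and 0.874 to 3.66 CPM of the other 4. The basal markers of that class summed to 1215 CPM, against 12650 CPM in duct. Of its 1573 cells, 576 had fewer than 2 epidermal UMIs. Fibroblasts of the same E18.5 library held 878 CPM of *Postn* and 5429 CPM of *Sparc*, above the basal level for both matrix genes. At postnatal day 5, where the basal class held epidermal transcripts, *Postn* was at 343 CPM, *Clca3a2* at 177 CPM and *Ltbp2* at 27.3 CPM. In the 590 basal cells with fewer than 2 epidermal UMIs the same genes were at 224, 62.1 and 107 CPM, and *Sparc* was at 1331 CPM in place of 575 CPM.

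**Figure D2:**
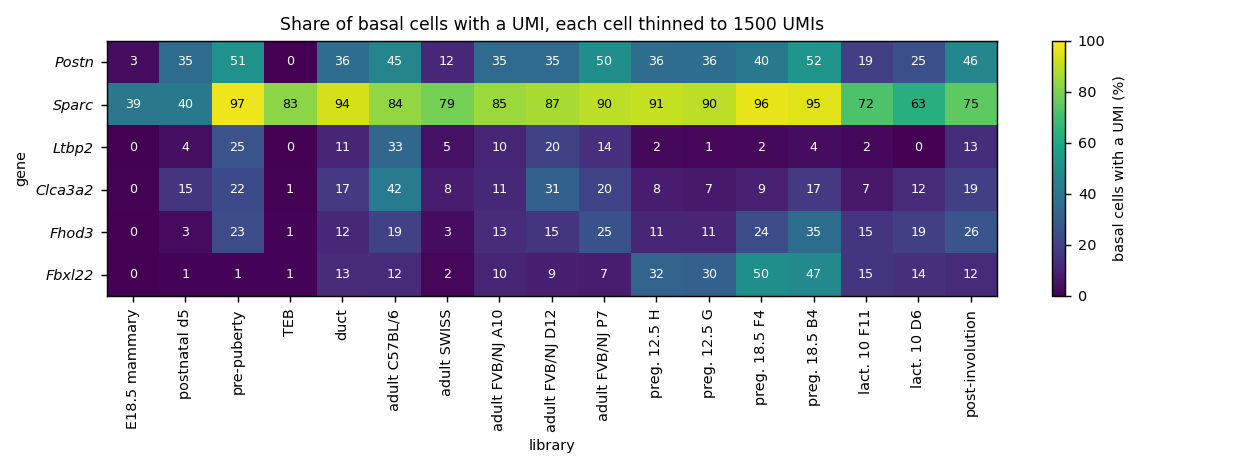
Heatmap of the share of basal cells with at least 1 UMI of each gene after every cell was thinned to 1500 UMIs. Genes are rows and mammary libraries are columns, with percent as colour and as printed number. *Fbxl22* climbs to 49.8% and 47.0% at pregnancy day 18.5, *Ltbp2* drops to 3.51% or less in pregnancy and lactation, and *Sparc* is at 62.7% or more in all libraries but E18.5 and postnatal day 5.

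Shares of cells with a UMI followed the levels. *Fbxl22* was found in 49.8% (F4) and 47.0% (B4) of basal cells at pregnancy day 18.5 and in 32.0% (H) and 30.5% (G) at day 12.5. Its adult shares were 10.3%, 8.82% and 7.49% in FVB/NJ A10, D12 and P7, 12.5% in C57BL/6 and 1.82% in SWISS. Luminal cells gave 2.95% to 4.77% in pregnancy and 0.24% to 1.42% in adults, so the basal shares lay above that background, least so in SWISS, where luminal cells gave 0.43%. *Ltbp2* was found in 10.4% to 33.1% of basal cells of the FVB/NJ and C57BL/6 adults, in 4.63% in SWISS and in 1.45% to 3.51% in pregnancy, against 0.22% to 0.50% of luminal cells there. In lactation D6 it was found in 0.26% of basal cells and 0.06% of luminal cells, close to the level of 1 cell. Basal cells with 3 or more of the 6 transcripts made up 49.0% in pregnancy B4 and 43.7% in adult C57BL/6, and 4.46% in adult SWISS.

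The stages of the pregnancy cycle were compared in FVB/NJ with edgeR's quasi-likelihood test on summed basal counts, in 1 fit of 9 libraries and 13171 genes (Benjamini-Hochberg adjusted p). *Ltbp2* fell at all 3 stages. Its mean was 109 ± 42.7 CPM (SD, n = 3) in adult FVB/NJ, 13.5 ± 1.94 CPM (n = 2) at pregnancy day 12.5, 20.4 ± 8.13 CPM (n = 2) at day 18.5 and 9.60 ± 8.53 CPM (n = 2) in lactation. The log2 fold change was -2.90 ± 0.56 (SE, edgeR adjusted p = 0.0443) at day 12.5, -2.46 ± 0.55 (edgeR adjusted p = 0.0437) at day 18.5 and -3.45 ± 0.63 (edgeR adjusted p = 0.00848) in lactation. No pregnancy or lactation library overlapped the adult FVB/NJ range for *Ltbp2*. Of the 15810 genes, 16.7%, 10.6% and 17.5% lay wholly below that range at the 3 stages. Among the genes tested, 0.509%, 0.699% and 1.59% were called lower at these stages. The 2 pregnancy calls sat close to the threshold. Each was lost when any 1 of pregnancy H, G, F4 or B4 or adult D12 was left out. Their log2 changes were -3.10 to -2.56 and -2.88 to -2.12 over all fits without 1 library. The lactation call was lost without D6 (-2.64), and its log2 changes were -4.92 to -2.64 over these fits. With the keratin rule alone for classes, both pregnancy calls were lost (-2.89, edgeR adjusted p = 0.0576 and -2.45, edgeR adjusted p = 0.0594).

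*Fbxl22* rose at pregnancy day 18.5. Its mean was 73.3 ± 11.02 CPM (SD, n = 3) in adult FVB/NJ, 276 ± 15.3 CPM (n = 2) at day 12.5, 522 ± 11.2 CPM (n = 2) at day 18.5 and 146 ± 72.7 CPM (n = 2) in lactation. The day 18.5 log2 change was 2.76 ± 0.42 (SE, edgeR adjusted p = 0.00831), and 1.87% of all genes were called higher there. Without F4 (2.70, edgeR adjusted p = 0.0948) or without B4 (2.82, edgeR adjusted p = 0.0583) the call was lost while the size held. At day 12.5 the change of 1.99 ± 0.42 did not pass with edgeR (adjusted p = 0.0525, 0.456% of genes called higher), and it passed with DESeq2 (1.98, adjusted p = 2.39e-04). It also passed with edgeR without the low-count filter (2.05, adjusted p = 7.50e-04), without TMM scaling (1.90, adjusted p = 0.0452), in cells with 1000 or more genes (1.90, adjusted p = 0.0386), without A10 (2.11, adjusted p = 0.0458) and without P7 (1.81, adjusted p = 0.0395). The lactation value was 1.07 ± 0.42 (edgeR adjusted p = 0.171, 4.51% of genes called higher), and without TMM scaling it turned to -0.08. The median over all genes in lactation was -0.12 with that scaling and -1.12 without it.

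With these settings, none of the other 4 genes passed edgeR's test at any stage. *Postn* gave log2 changes of -0.26 ± 0.41, 0.19 ± 0.41 and -0.93 ± 0.42 (SE) at day 12.5, day 18.5 and lactation, with edgeR adjusted p of 0.830, 0.877 and 0.234. *Sparc* gave 0.41 ± 0.47, 1.06 ± 0.47 and 0.23 ± 0.47, with edgeR adjusted p of 0.755, 0.303 and 0.818. *Clca3a2* gave -1.64 ± 0.50, -0.99 ± 0.49 and -0.90 ± 0.49, with edgeR adjusted p of 0.151, 0.356 and 0.324. *Fhod3* gave -0.67 ± 0.44, 0.86 ± 0.42 and 0.29 ± 0.43, with edgeR adjusted p of 0.539, 0.355 and 0.749. Calls appeared with other settings. *Postn* (-2.03, edgeR adjusted p = 0.0203) and *Clca3a2* (-1.84, edgeR adjusted p = 0.0435) were called lower in lactation without TMM scaling. *Clca3a2* was called lower at day 12.5 without the low-count filter (-1.58, edgeR adjusted p = 0.0181) and without A10 (-1.98, edgeR adjusted p = 0.0360), and *Fhod3* higher at day 18.5 without P7 (1.32, edgeR adjusted p = 0.0430). With DESeq2, *Clca3a2* passed at day 12.5 (-1.66, adjusted p = 0.0326) and *Sparc* at day 18.5 (1.04, adjusted p = 0.0451). A missed threshold in groups of 2 and 3 libraries does not show that these levels were equal. Libraries of a stage all lay outside the adult FVB/NJ range for *Sparc* at day 12.5 and at day 18.5 (higher), for *Clca3a2* and *Fhod3* at day 12.5 (lower) and for *Postn* in lactation (lower). Of the 15810 genes, 16.4% lay above it in this way and 16.7% below it at day 12.5, 16.9% above it at day 18.5 and 17.5% below it in lactation.

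**Figure D3:**
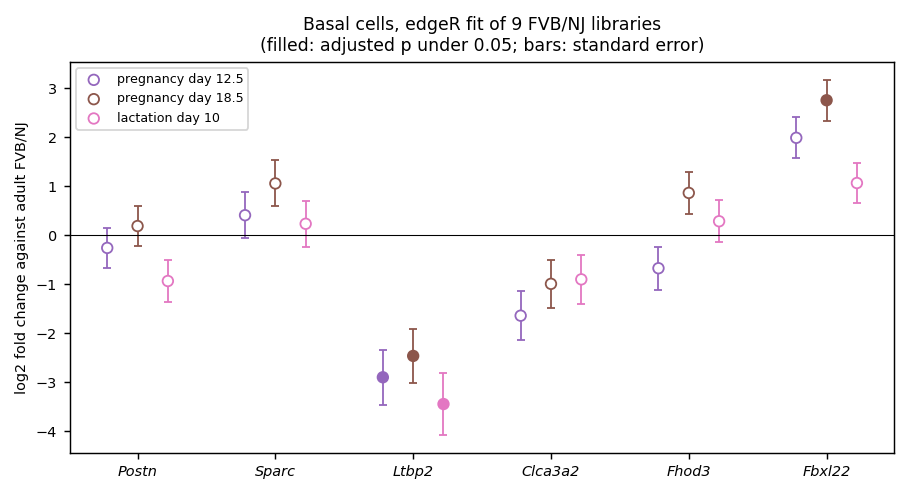
Log2 fold change of each gene in basal cells at pregnancy day 12.5, pregnancy day 18.5 and lactation day 10 against adult FVB/NJ (edgeR), with bars for 1 SE. *Ltbp2* lies at -2.90, -2.46 and -3.45, *Fbxl22* at 1.99, 2.76 and 1.07, and the other 4 genes between -1.64 and 1.06.

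Markers of other cells also moved in the basal class, where 4.51% of all genes rose in lactation and 1.87% at pregnancy day 18.5. In lactation, 4 of 4 tested immune markers rose (summed level 41.4 to 139 CPM outside milk genes against 1.004 to 1.99 CPM in adult FVB/NJ), as did 5 of 6 endothelial markers (83.7 to 221 against 10.02 to 12.5 CPM), 3 of 5 mural markers (63.4 to 123 against 3.58 to 11.8 CPM) and 2 of 4 epidermal markers (44.1 to 777 against 20.7 to 45.8 CPM). At pregnancy day 18.5, 3 of 5 mural markers rose (26.1 to 37.1 CPM). Some markers near 0 in adult FVB/NJ passed the low-count filter only through the stages where they were high. Among them, *Cd52* was at 0 to 0.0919 CPM and *Kcnj8* at 0 CPM in adult FVB/NJ (milk genes included). The counts of risen markers were thus partly fixed by the filter and are descriptions only. Fibroblast markers summed to 751 to 897 CPM at day 18.5 against 162 to 311 CPM in adult FVB/NJ. Of these markers, 0 of 5 were called by edgeR (1 reached p under 0.05 before adjustment, and DESeq2 called 1 higher). The marker *Dcn* carried the sum, at 712 CPM (B4) and 825 CPM (F4) against 143 to 301 CPM in adult FVB/NJ (milk genes included). The other fibroblast markers were at 10.4 CPM or less at both stages. The part of other cells in the changes of *Ltbp2* and *Fbxl22* was not tested. With basal cells limited to fewer than 2 epidermal UMIs, *Ltbp2* in the lactation library D6 was 4.34 CPM.

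In the adult gland, 5 of the 6 genes were higher in basal than in luminal cells. The same 5 libraries gave both classes, the library was a block, and 13016 genes were tested with edgeR. *Sparc* gave a log2 change of 4.16 ± 0.28 (SE, edgeR adjusted p = 2.26e-05), *Postn* 4.06 ± 0.45 (edgeR adjusted p = 1.43e-04) and *Ltbp2* 3.51 ± 0.35 (edgeR adjusted p = 9.05e-05). The intracellular *Fhod3* and *Fbxl22* gave 3.92 ± 0.32 (edgeR adjusted p = 3.53e-05) and 3.45 ± 0.41 (edgeR adjusted p = 2.17e-04). Among all genes 28.2% were called higher in basal cells and 26.4% lower. These 5 genes were above their luminal level in 12 of 12 later libraries, with ratios between 3.49 (*Fbxl22* in adult SWISS) and 40.6 (*Postn*). Adult luminal levels were 16.1 to 30.8 CPM for *Postn* against 87.7 to 663 CPM in basal cells, and 49.9 to 144 CPM for *Sparc* against 1107 to 1846 CPM. They were 3.99 to 21.97 CPM for *Ltbp2* against 33.2 to 287 CPM, and 2.63 to 9.70 CPM for *Fhod3* against 19.4 to 231 CPM. *Fbxl22* was at 1.997 to 11.7 CPM in luminal and 10.3 to 106 CPM in basal cells, ranges that overlapped through SWISS. *Clca3a2* was the exception, at 0.30 ± 0.45 (edgeR adjusted p = 0.596), higher in basal cells in 3 of 5 adult and 8 of 12 later libraries.

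**Figure D4:**
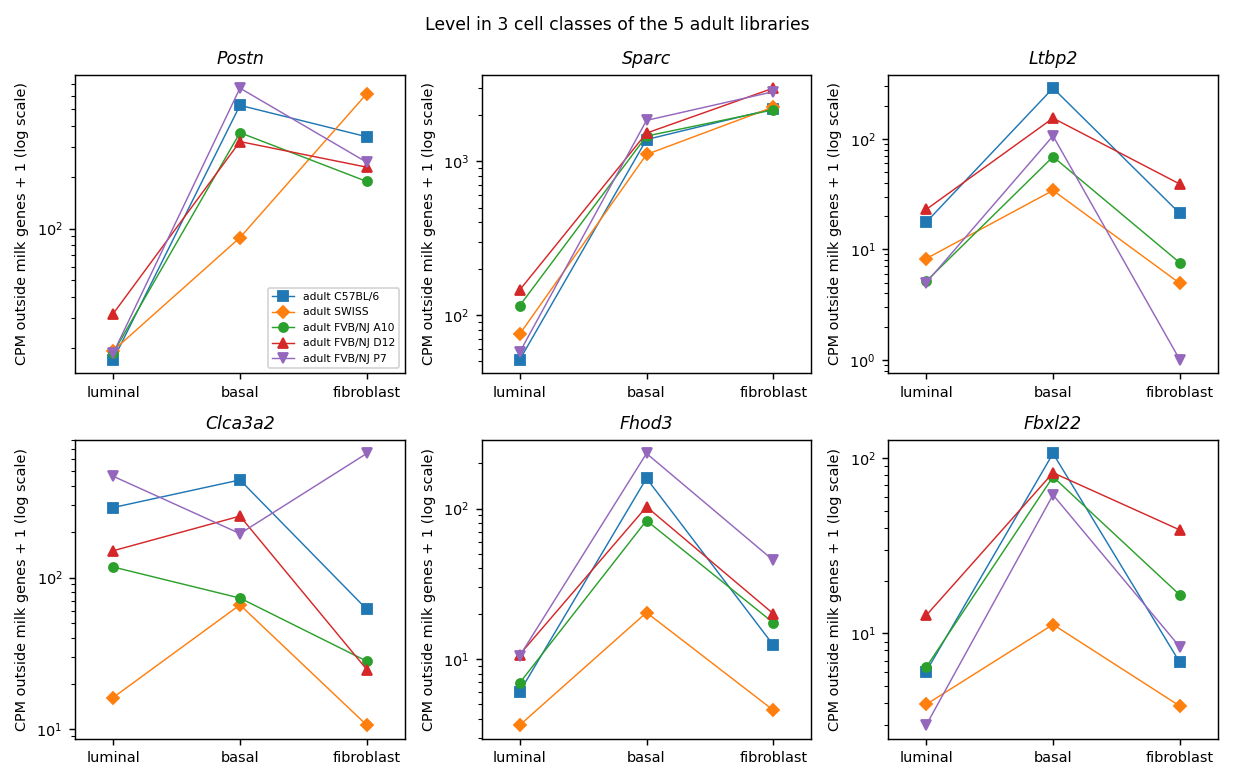
Level of each gene (CPM of UMIs outside milk genes, log axis) in basal cells, luminal cells and fibroblasts of the 5 adult libraries, with 1 point for each library and class. Within each library, basal points lie above luminal ones for every gene but *Clca3a2*, and fibroblasts hold *Sparc* at 2164 to 2996 CPM, above basal cells in each library.

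The class with more *Clca3a2* differed between stages. Luminal cells held 116, 149 and 464 CPM in adult FVB/NJ A10, D12 and P7, 288 CPM in C57BL/6, 15.2 CPM in SWISS and 591 CPM after involution. In pregnancy, luminal cells held 5.96 and 6.95 CPM at day 12.5 (H, G) and 6.57 and 7.76 CPM at day 18.5 (F4, B4), below all adult libraries, and in lactation 64.3 and 50.7 CPM (F11, D6). The luminal mean went from 243 ± 192 CPM (SD, n = 3) in adult FVB/NJ to 6.45 ± 0.698 CPM (n = 2) at day 12.5, and the basal mean from 173 ± 92.1 CPM (n = 3) to 50.6 ± 5.77 CPM (n = 2). The luminal class also changed in its markers (milk genes included). Its *Prlr* was at 1229 to 1891 CPM in adult FVB/NJ and at 54.9 to 107 CPM in pregnancy. Its *Elf5* was at 50.1 to 143 CPM and at 239 to 295 CPM. The part of the mix of luminal cells in the *Clca3a2* change was not tested. In a fit of both classes over the 9 FVB/NJ libraries (14886 genes, library as a block), the basal against luminal difference was larger than in adults by 3.42 ± 0.52 (log2, SE, edgeR adjusted p = 0.00259) at day 12.5 and by 3.82 ± 0.53 (edgeR adjusted p = 8.38e-04) at day 18.5. In lactation it was 0.65 ± 0.53 (edgeR adjusted p = 0.467). Among all genes, 6.64%, 11.8% and 7.58% were called in this direction. *Ltbp2* went the other way at day 12.5, by -1.66 ± 0.47 (edgeR adjusted p = 0.0448, 4.22% of genes called), a call lost without TMM scaling (-1.61, edgeR adjusted p = 0.0613). At day 18.5 and in lactation 9.8% and 6.22% of genes were called lower, and no further member was. In lactation this turned on the scaling, and the values of all 6 members were higher without TMM scaling. They were then 2.301 for *Fhod3* (edgeR adjusted p = 0.00152), 1.99 for *Clca3a2* (edgeR adjusted p = 0.0177) and 1.89 for *Postn* (edgeR adjusted p = 0.0116). *Fbxl22* was at 1.86 (edgeR adjusted p = 0.0178), *Sparc* at 1.52 (edgeR adjusted p = 0.0293) and *Ltbp2* at 0.24, against -0.94 with the scaling. The share of all genes called without the scaling was not counted, so these calls are not read as particular to the members.

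**Figure D5:**
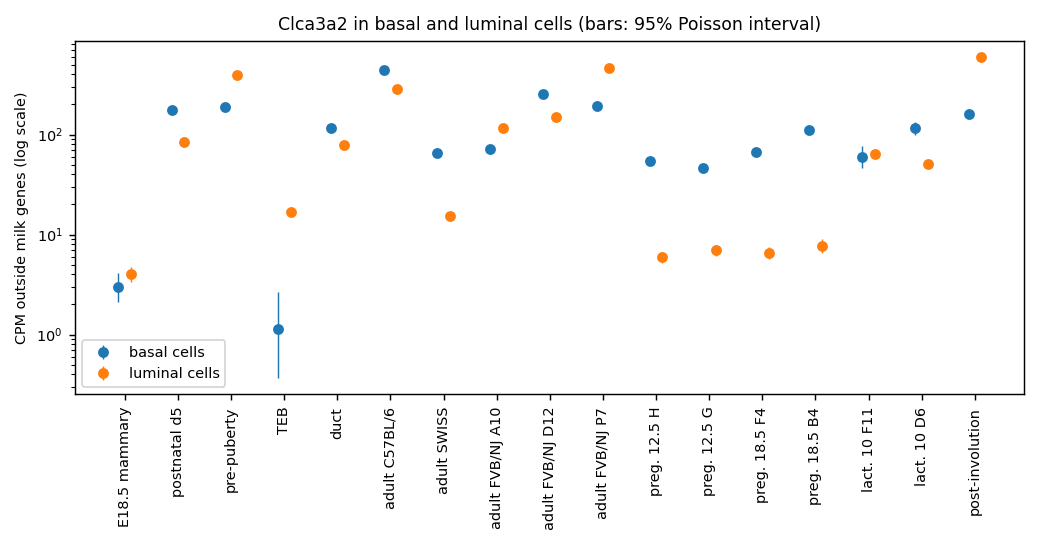
*Clca3a2* (CPM of UMIs outside milk genes, log axis) in basal and luminal cells of the 17 mammary libraries, with bars for the 95% Poisson interval. In the 4 pregnancy libraries luminal points lie at 5.96 to 7.76 CPM and basal points at 46.5 to 111 CPM. In adult FVB/NJ they lie at 116 to 464 CPM (luminal) and 72.2 to 253 CPM (basal). Luminal points lie above basal ones in 7 libraries: E18.5, pre-puberty, TEB, adult FVB/NJ A10 and P7, lactation F11 and post-involution.

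Against fibroblasts of the same adult libraries (10595 genes), the 6 genes divided. *Ltbp2* was higher in basal cells by 3.42 ± 0.32 (log2, SE), *Fhod3* by 2.95 ± 0.27 and *Fbxl22* by 2.71 ± 0.40 (edgeR adjusted p = 6.32e-06, 5.17e-06 and 2.56e-04). *Clca3a2* was higher by 1.84 ± 0.56 (edgeR adjusted p = 0.0226). *Sparc* was lower in basal cells (-0.62 ± 0.15, edgeR adjusted p = 0.00631), and *Postn* did not pass (0.37 ± 0.51, edgeR adjusted p = 0.603). Thus 4 of 6 genes were called higher and 1 lower, against 20.2% and 17.1% of all genes. *Postn* turned on single libraries. Its fibroblast level was 615 CPM in SWISS but 188 to 344 CPM in the other adults. Without SWISS it was called higher in basal cells (1.01, edgeR adjusted p = 0.00502), and without P7 its change was -0.061. The *Clca3a2* call was lost without SWISS (1.52, edgeR adjusted p = 0.0642), C57BL/6 (1.38, edgeR adjusted p = 0.138) or FVB/NJ D12 (1.59, edgeR adjusted p = 0.0830), and without the library block neither *Clca3a2* (0.999, edgeR adjusted p = 0.494) nor *Sparc* (-0.62, edgeR adjusted p = 0.257) was called.

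Fibroblasts of 12 of 12 later libraries had more *Sparc* than basal cells, and those of 7 of 12 had more *Postn*: SWISS and all 6 libraries of pregnancy and lactation. In the latter, *Postn* was at 540 to 860 CPM in fibroblasts in pregnancy and at 531 and 912 CPM in lactation (F11, D6). With fibroblasts chosen by collagens, *Lum* and *Pdgfra* but not *Dcn*, a rule added after the data were seen, these levels were 917 to 1614 CPM and 684 and 1079 CPM. Over the 12 libraries *Sparc* reached 1516 to 7624 CPM in fibroblasts. In adult fibroblasts outside P7, *Ltbp2*, *Clca3a2*, *Fhod3* and *Fbxl22* were at 2.85 to 38.0 CPM, except for *Clca3a2* in C57BL/6 (60.7 CPM). Fibroblast classes were small, from 38 to 725 cells in the adults, and part of their cells held basal transcripts. In pregnancy their basal markers summed to 15986 to 31935 CPM, against 18478 to 32398 CPM in basal cells (milk genes included). The collagen rule kept 16 of 42 cells in H, 13 of 69 in G, 20 of 106 in F4 and 15 of 103 in B4. Pregnancy fibroblast values of the main rule thus came in large part from cells with basal transcripts. The 52 fibroblasts of FVB/NJ P7 had 657 CPM of *Clca3a2*, with 64 of the 89 UMIs in 1 cell, and the 34 of them kept by that collagen rule had none. In pregnancy the class held 324 to 564 CPM of *Fbxl22*, and 12.7 to 133 CPM in the 13 to 20 cells of the collagen rule. With that rule the same 5 genes were called in adults.

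Other matrix genes were taken from a list of 32. In adults, 19 of 27 tested were higher in basal than in luminal cells (28.2% of all genes were), led by *Bgn* (4.16), a small proteoglycan, and *Eln* (3.96), elastin, and 1 was lower (26.4% of all genes), *Ltbp1* (-1.56), a relative of *Ltbp2*. The list's median log2 change was 3.14 against 0.01 over all genes. Against fibroblasts, where 20.2% of all genes were called higher and 17.1% lower, 9 of 31 were higher, led by *Spock2* (2.18) and the basement membrane collagen *Col4a2* (1.84), and 19 lower, led by *Efemp1* (-11.41) and *Loxl1* (-9.43). None of 29 was called at pregnancy day 12.5 by edgeR (11 reached p under 0.05 before adjustment, and DESeq2 called 3 lower), where the median was 0.15 against -0.07 over all genes. At day 18.5 none rose (1.87% of all genes did) and 2 of 29 fell (0.699% of all genes), the fibulins *Fbln2* (-2.75 ± 0.62, SE, edgeR adjusted p = 0.0439) and *Fbln1* (-2.19 ± 0.41, edgeR adjusted p = 0.0194). In lactation 4 of 29 fell (1.59% of all genes, 209 genes, against 3270 without TMM scaling), with *Fbln2* (-5.43 ± 0.83, edgeR adjusted p = 0.00316) and *Fbln1* (-2.89 ± 0.51, edgeR adjusted p = 0.00651) ahead of *Col16a1* and *Eln*.

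Contractile genes, from a list of 18, are the class to which *Fhod3* and *Fbxl22* are closest in function. In adults 15 of 17 tested were higher in basal than in luminal cells (28.2% of all genes), led by *Tagln* (4.47) and the myosin light chain kinase *Mylk* (4.42), and *Fhod1*, a formin related to *Fhod3*, was lower (-2.93). All 15 that were tested against fibroblasts were higher in basal cells (20.2% of all genes), led by *Tpm2* (3.35) and *Tagln* (3.30). None of 17 was called at day 12.5 by edgeR (3 reached p under 0.05 before adjustment, and DESeq2 called 2 higher), with a median of 0.46 against -0.07. At day 18.5, 2 rose (1.87% of all genes), *Mylk* (2.75 ± 0.54, SE, edgeR adjusted p = 0.0249) and *Synpo2* (2.70 ± 0.35, edgeR adjusted p = 0.00324), and the median was 1.03. In lactation, where 4.51% of all genes rose and 1.59% fell, *Synpo2* rose (3.70, edgeR adjusted p = 2.18e-04) and *Actn1* fell (-1.52, edgeR adjusted p = 0.0478).

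Genes of the TGF-beta pathway gave no edgeR call at either pregnancy stage among 14 tested. Before adjustment 3 and 5 reached p under 0.05, and DESeq2 called 1 lower at each stage. In lactation 3 fell (1.59% of all genes), including the inhibitor *Smad7* (-2.74, edgeR adjusted p = 0.0127) and the ligand *Tgfb3* (-2.09, edgeR adjusted p = 0.0359), and *Skil* was the other. In adults 5 of 14 were higher in basal than in luminal cells, led by the receptors *Tgfbr3* (3.61) and *Tgfbr1* (1.38), and 3 were lower, led by *Itgb6* (-1.11) and *Tgfbr2* (-0.81), shares near the 28.2% and 26.4% of all genes. Against fibroblasts 3 of 13 were higher, led by *Itgb8* (2.14), and 2 lower, led by *Tgfbr2* (-3.97), near the 20.2% and 17.1% of all genes.

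Between the 6 genes, correlations of basal log2 levels over the 17 mammary libraries ran from 0.14 (*Ltbp2* with *Fbxl22*) to 0.87 (*Postn* with *Fhod3*). These are descriptions: the points share strains, stages and library depth, and TEB, chosen for low values, is among them. Of 7590 genes, *Postn* was closest to *Fhod3*, *Clca3a2* (0.87) and *Nedd9* (0.86), and *Clca3a2* to *Postn*, *Ltbp2* (0.86) and *Clca3a1* (0.85). *Ltbp2* was closest to *Ltbp3* (0.93), *Ephb1* (0.90) and *Mical2* (0.89). *Fhod3* was closest to *Pdlim3* (0.95), *Cp* (0.95) and *Palld* (0.95), of which *Pdlim3* and *Palld* encode actin-associated proteins. *Fbxl22* was closest to *Asb2* (0.95), *Gm11627* (0.93) and *Eva1b* (0.92), where *Asb2* is a subunit of muscle ubiquitin ligases. *Sparc* was closest to *Grn* (0.93), *Mroh1* (0.93) and *Gucy1b1* (0.93).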

How the data were processed

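Droplet 3' single-cell RNA-seq libraries of mouse mammary glands were analysed. Per the file headers, the authors deposited Cell Ranger matrices of raw UMI counts per gene and cell (versions 3.1.0 for postnatal day 5 and pre-puberty, 3.0.2 for the others), and the submitters' processing notes name the build mm10. Doublets were not called. Upper limits on genes and counts, those of the study's methods, together with more than 500 genes and a mitochondrial share under 15% to 25% by library, left 132599 of 149371 cells. Cells fell into classes by keratin and stromal marker UMIs (5 or more fibroblast UMIs for a fibroblast), and counts were summed per library and class with 20 or more cells. No column of another sample was used.

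Sums were tested with edgeR 4.0.16 (quasi-likelihood, TMM, filterByExpr, calls at adjusted p under 0.05) in R 4.3.3, after the scripts were tested on simulated data. DESeq2 1.42.0, filters, scalings, class rules and leave-one-out fits were alternatives. Library was a block in comparisons of classes. Poisson, binomial and Wilson intervals at 95% (scipy 1.17.1) and limits of 3 counts for a count of 0 cover counting error only.

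The members and lists were chosen with earlier results of these data known. Text names all 6 members, *Clca3a1*, the 2 most changed called genes of each list per direction, and the 3 genes most correlated with each member (log2 of CPM + 5, mean of 10 CPM or more). Counts of 5 or fewer were also spelled out by name after values were seen.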

Additional observations from a re-analysis of the deposited data

Results flagged for a closer look

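The basal against luminal difference of *Clca3a2* was larger than in adult FVB/NJ by 3.42 at pregnancy day 12.5 and by 3.82 at day 18.5 (log2, edgeR interaction test), and was singled out because the change between the classes differed between stages. Luminal cells in both lactation libraries and after involution were above all 4 pregnancy libraries. The markers of the luminal class also differed between stages, and the part of its cell mix in the difference was not tested. The same comparison singled out *Ltbp2*, at -1.66 for day 12.5. Left without TMM scaling, the *Clca3a2* values were 3.54 (edgeR adjusted p = 0.00238) and 4.49 (edgeR adjusted p = 2.21e-04), and left without the milk genes they were 3.39 (edgeR adjusted p = 0.0023) and 3.77 (edgeR adjusted p = 7.29e-04).

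The E18.5 skin library entered no comparison. Its 8950 fibroblasts held 1171 CPM of *Postn* and 7638 CPM of *Sparc*, and the highest *Sparc* among mammary fibroblasts was 14657 CPM at pre-puberty. They also held 27.1 CPM of *Ltbp2*, 7.03 CPM of *Fhod3*, 1.92 CPM of *Fbxl22* and 0.180 CPM of *Clca3a2*. These data were singled out because they lie outside every comparison and each value exceeds the limit that a count of 0 allows in that library.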

How the results depend on the processing

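Over the settings other than leaving out a library, the counts of the 6 genes called were within 1.5 times the main count in 44 of 52 cases. At pregnancy day 12.5 the count was 1 with edgeR, 3 with DESeq2, 3 without the low-count filter, 2 without TMM scaling, 2 in cells with 1000 or more genes and 0 with the keratin rule alone, where *Ltbp2* had an edgeR adjusted p of 0.0576. At day 18.5 the keratin rule alone gave 1 in place of 2 (*Ltbp2* was lost, edgeR adjusted p = 0.0594), and in lactation no TMM scaling gave 3 in place of 1. Against fibroblasts the fit without the replicate block gave 3 in place of 5. No paired analysis was possible because the stages share no replicate numbers; the classes of a library were paired by the library itself.

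Leaving out each library in turn gave counts of 0 to 3 at day 12.5, 0 to 3 at day 18.5, 0 to 1 in lactation, 5 to 5 against luminal cells and 4 to 5 against fibroblasts. A lone library of a stage was then assumed to vary like the other stages. Directions turned, as log2 ranges over these fits, for *Sparc* in lactation (-0.20 to 0.57, negative without F11), for *Postn* at day 12.5 (-0.44 to 0.0064, positive without P7) and at day 18.5 (-0.18 to 0.49, negative without B4), for *Clca3a2* against luminal cells (-0.17 to 0.69, negative without SWISS) and for *Postn* against fibroblasts (-0.061 to 1.01, negative without P7). They also turned in lactation without TMM scaling for *Fbxl22* (-0.084), *Sparc* (-0.89) and *Fhod3* (-0.84), in cells with 1000 or more genes for *Sparc* (-0.18) and *Fhod3* (-0.32), and for *Postn* against fibroblasts over all mammary libraries but TEB and duct (-0.47). None of the turned values passed the test, and the cause was not tested. As shares of cells at 1500 UMIs, the duct over TEB ratio of *Sparc* was 1.13. The other genes were found in 0 to 2 TEB cells, and their duct shares were 6.62 (*Ltbp2*) to 21.8 (*Postn*) times the share that 3 cells would give.

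Over all genes, edgeR called 127, 338 and 803 at the 3 stages, DESeq2 560, 770 and 1424, and edgeR without the filter 1028, 1116 and 1849. Without TMM scaling 3690 were called in lactation, 420 higher and 3270 lower, against 594 higher and 209 lower with it. The median of all genes was -0.07 with and -0.18 without that scaling at day 12.5, -0.12 and -1.12 in lactation, and 0.12 and -0.0020 against fibroblasts.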
